A study of Mus musculus with 12 samples.

Results

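The genes of IL-6 and IL-1 signalling described here are 10 of the 20069 genes in the table of mouse liver mRNA: the receptor genes Il6ra, Il1r1 and Il1rap, the IL-6 signal genes Stat3 and Socs3, the NF-kappaB regulators Nfkbia and Bcl3, and the transcription factor genes Cebpb, Cebpd and Junb. They were picked by symbol, with measured values in view, as receptors and early regulators acting above the acute-phase genes whose mRNA is high at ZT2. Comparisons of ZT2 with other times are therefore given as a description without a test. The tests below use ZT6 to ZT22, or the 2 series against each other, and nothing is read from the rhythm criteria, which include ZT2. Livers came from adult male C57BL/6 mice, 3 to 6 months old, kept in 12 hr of light and 12 hr of dark. No group had a genetic change or a drug treatment, and the paper states that the mice were killed under isoflurane anesthesia. The 12 RNA-Seq samples form 6 time points (ZT2, ZT6, ZT10, ZT14, ZT18 and ZT22, with ZT0 at lights on) with 2 samples each, 1 in series 1 and 1 in series 2. The time course is thus made of different animals, and with n = 2 the spread at a time point is that between 2 samples.

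IL-6 reaches hepatocytes through its receptor subunit, the product of Il6ra, which pairs with the shared subunit gp130 and activates the transcription factor STAT3. IL-1 binds the product of Il1r1 together with the accessory chain encoded by Il1rap and releases NF-kappaB from its inhibitor IkappaB-alpha, encoded by Nfkbia. In the liver, STAT3, NF-kappaB and the C/EBP factors are known to drive the acute-phase genes, which code for plasma proteins of the inflammatory response such as serum amyloid A and haptoglobin, and SOCS3 feeds back to limit the IL-6 signal.

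The levels are mean exon coverage in reads per base pair (rpbp), scaled to 40000000 uniquely mapped sequences per sample, so that levels of different genes are comparable per base of exon. A gene was taken as expressed when at least 1 of its 12 values was above 8 rpbp, which held for 10198 genes and for all 10 genes described. Cebpd passed through 1 sample alone, at ZT10 in series 2, and Socs3 was above 8 rpbp in 6 of 12 samples. The other genes were above it in all 12. In order of the mean over the 12 samples, the levels were 85.6 ± 7.32 rpbp (SD, n = 12) for Il1rap, 70.3 ± 19.3 rpbp for Stat3, 66.0 ± 21.6 rpbp for Cebpb, 40.05 ± 7.09 rpbp for Nfkbia, 28.0 ± 11.1 rpbp for Il6ra, 24.3 ± 12.3 rpbp for Il1r1, 22.1 ± 5.61 rpbp for Bcl3, 21.9 ± 12.5 rpbp for Junb, 9.55 ± 5.01 rpbp for Socs3 and 4.38 ± 2.27 rpbp for Cebpd. Neighbours in this order differed by less than the larger of their 2 SDs, except Cebpb and Nfkbia, Nfkbia and Il6ra, and Socs3 and Cebpd. Of 8 cytokine genes, only Il1a passed the expression minimum, at 4.68 to 8.60 rpbp over the 12 samples. Il6 lay between 0 and 0.20 rpbp and Il1b between 0.68 and 2.24 rpbp.

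The promoters were searched for the letters of 5 elements, TTCNNNGAA (STAT), TTGCNNCAA (C/EBP), GGGNNTTTCC (NF-kappaB), TGACGTCA (CRE) and CACGTG (E-box), on both strands, in RefSeq windows of the build GRCm38.p6 from 250 bases before to 50 bases after the start. Of the 10 genes, 9 had such a window (10 windows, since Il1r1 has 2 starts). A match was found in 3 of them, which are printed because each holds an element of the pathway or of the clock; the capitals mark the matched letters. The windows lie at chr3:89913147-89913446 for Il6ra, chr11:117969317-117969616 for Socs3 and chr12:55492598-55492897 for Nfkbia, all on the minus strand.
Il6ra: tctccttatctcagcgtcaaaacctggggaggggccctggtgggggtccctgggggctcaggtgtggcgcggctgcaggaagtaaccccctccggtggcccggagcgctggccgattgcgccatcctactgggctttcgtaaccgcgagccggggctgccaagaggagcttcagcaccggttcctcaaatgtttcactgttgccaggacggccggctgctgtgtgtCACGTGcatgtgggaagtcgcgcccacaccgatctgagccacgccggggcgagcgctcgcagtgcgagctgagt
Socs3: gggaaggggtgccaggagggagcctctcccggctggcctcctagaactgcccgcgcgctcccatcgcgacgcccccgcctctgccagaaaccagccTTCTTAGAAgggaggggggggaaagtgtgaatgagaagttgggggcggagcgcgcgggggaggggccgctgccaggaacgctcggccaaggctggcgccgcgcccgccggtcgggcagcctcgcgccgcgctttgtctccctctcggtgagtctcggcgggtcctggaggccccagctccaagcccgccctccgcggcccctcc
Nfkbia: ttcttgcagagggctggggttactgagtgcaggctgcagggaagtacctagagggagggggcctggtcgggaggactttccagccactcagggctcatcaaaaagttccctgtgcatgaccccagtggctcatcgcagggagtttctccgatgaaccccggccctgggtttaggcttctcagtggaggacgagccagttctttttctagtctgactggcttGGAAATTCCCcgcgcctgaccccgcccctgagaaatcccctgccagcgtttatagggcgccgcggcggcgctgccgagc
The E-box of Il6ra, the DNA element that CLK:BMAL1 binds, starts 24 bases before the transcription start. The STAT letters in Socs3, a known STAT3 target, start 154 bases before it, and the NF-kappaB letters in Nfkbia, a known NF-kappaB target, start 29 bases before it. Of the 32851 RefSeq windows of this length, 7.15% hold the E-box letters, 8.30% the STAT letters and 1.63% the NF-kappaB letters, against 2.08% for C/EBP and 1.79% for the CRE. The elements do not overlap in these windows. The share of all windows that hold any of these elements was not counted. Whether matches were more frequent in the windows of the genes described than in all windows was thus not tested. The match is a description of the letters, and binding was not measured here.

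A single sample stood apart from its partner of the same time. The mean log2(rpbp + 1) of 25 acute-phase genes was 10.5 and 10.4 in the ZT2 samples of series 1 and 2. It was 9.90 in the ZT22 sample of series 2, 8.10 in the ZT22 sample of series 1, and between 7.80 and 8.60 in the 8 samples of the other times. All 25 genes were higher in series 2 than in series 1 at ZT22, with a median log2 difference of 1.06, whereas the median over all expressed genes was −0.02. Saa1, which encodes serum amyloid A, was at 14312 and 12918 rpbp at ZT2, at 5249 rpbp in the ZT22 sample of series 2 and at 115 rpbp in the ZT22 sample of series 1. Lcn2, which encodes the iron-siderophore binding protein lipocalin 2, was at 540 and 431 rpbp at ZT2, and at 244 and 9 rpbp at ZT22 in series 2 and 1. The mean of the list was thus high in both samples of ZT2 and in 1 of the samples of ZT22, although in 15 of the 25 genes only did both ZT2 samples lie above all others, and Orm3, which encodes an orosomucoid, was at a mean of 28.6 rpbp at ZT2 and 28.0 rpbp elsewhere. Over 15 clock genes, picked after this was seen, each of the 12 samples correlated best with its partner of the same time, and the 2 samples of ZT22 had r = 0.97 (across genes, on log2 values less the mean of each gene). By these genes the series 2 sample was closest to its ZT22 partner. Its r with the ZT2 samples was 0.82 and 0.76, against 0.71 and 0.63 for the ZT22 sample of series 1. Why the series 2 sample stood apart was not tested. The tests over time of the 10 genes are given with and without it.

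The same sample stood above its ZT22 partner in 6 of the 10 genes, against 46.5% of all expressed genes. Socs3 was 7.31 times, Cebpb 2.08 times, Il1r1 1.89 times and Stat3 1.60 times as high in it as in the series 1 sample, whereas Nfkbia was 1.17 times and Bcl3 1.10 times as high. Il6ra was at 0.98, Il1rap at 0.91, Junb at 0.78 and Cebpd at 0.75 of the series 1 level. These ratios compare 1 sample with 1 other and have no replicate check.

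**Figure D1:**
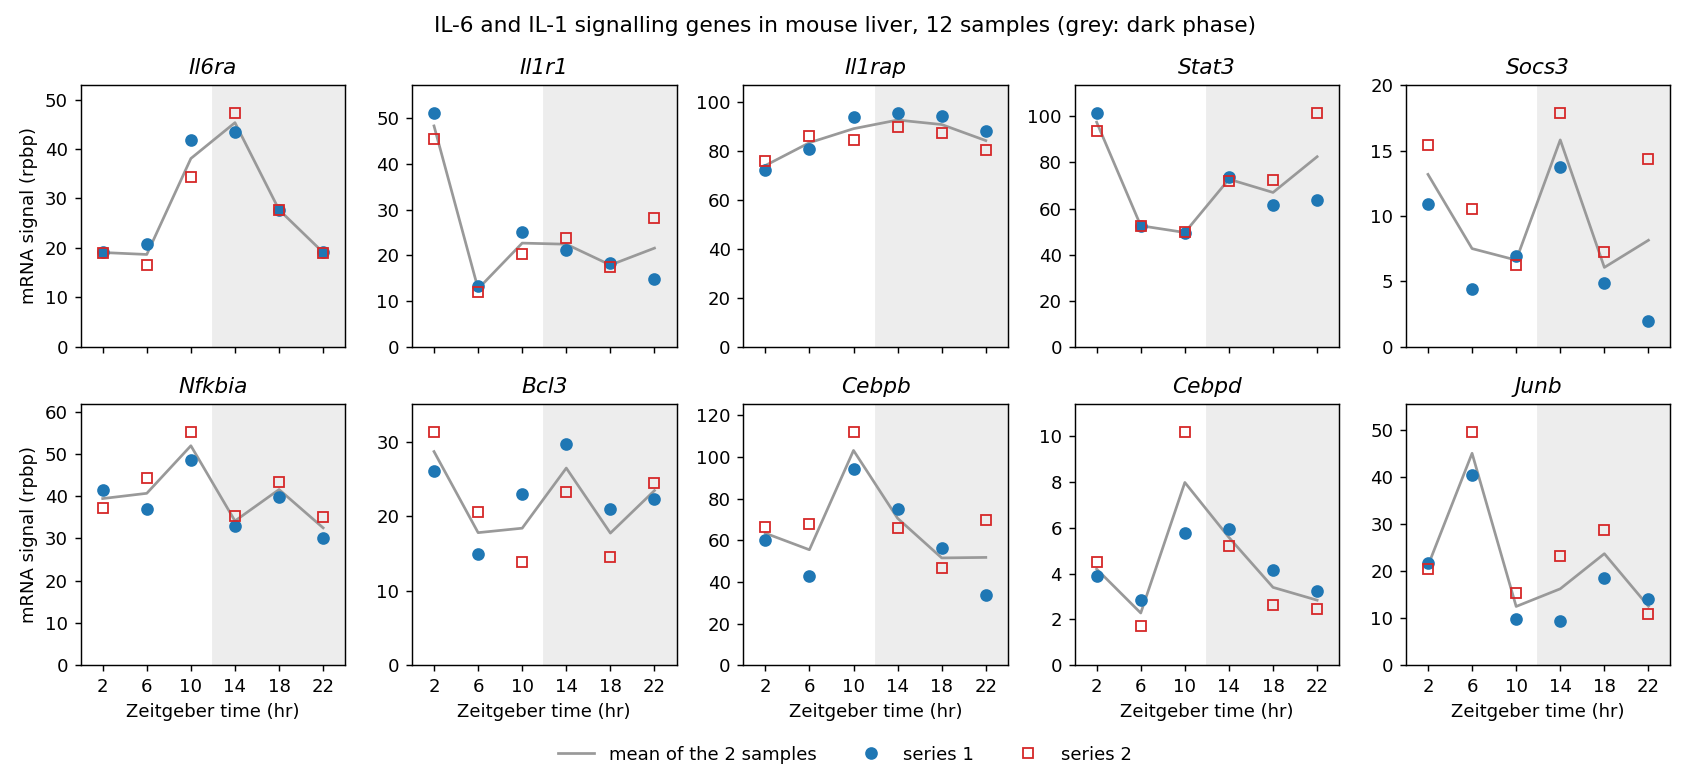
mRNA signal (rpbp, linear axes from 0) of the 10 genes at each Zeitgeber time (hr); circles are series 1, open squares series 2, the grey line joins the mean of the 2 samples, and grey shading is the dark phase. Il6ra peaks at ZT14 with both series close together, Il1r1 stands highest in both ZT2 samples (51.2 and 45.5 rpbp), and Stat3, Socs3 and Cebpb show a wide gap between the series at ZT22.

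The first question was whether the mRNA of these genes varies over the day when ZT2 is left aside. Only Il6ra did so past the threshold. In limma's F-test over the 5 times from ZT6 to ZT22, with Benjamini-Hochberg adjustment over all 10198 expressed genes, 1 of the 10 genes and 627 of all genes (6.15%) had an adjusted p below 0.05. At an unadjusted p below 0.05 the counts were 5 of the 10 and 2647 of all genes. The log2 difference between the highest and the lowest time had a median of 0.93 over the 10 genes and 0.37 over all expressed genes, and the SD within a time point on the log2 scale had a median of 0.29 against 0.15. These medians do not hold for each gene, since Il1rap had a range of 0.15, and the SDs of Il1rap (0.077), Il6ra (0.12) and Nfkbia (0.13) were below the median of all genes.

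Il6ra, which encodes the ligand-binding chain of the IL-6 receptor, was at 20.7 and 16.6 rpbp in series 1 and 2 at ZT6, 41.8 and 34.4 rpbp at ZT10, 43.4 and 47.3 rpbp at ZT14, 27.6 and 27.8 rpbp at ZT18, and 19.2 and 18.9 rpbp at ZT22. At ZT2 it was at 19.1 and 19.0 rpbp. The 4 samples of ZT10 and ZT14 lay above all 8 others, and those of ZT18 came next. From 18.7 ± 2.91 rpbp (SD, n = 2) at ZT6 to 45.4 ± 2.77 rpbp at ZT14, the log2 difference was 1.24 (F = 35.7, adjusted p = 0.00566 by limma). Without the series 2 sample of ZT22 the adjusted p was 0.0182, and over the alternatives without ZT2 it lay between 0.00230 and 0.0261. The gene lies on chromosome 3 (89673246 to 89717084, minus strand, mm9).

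Il1r1, the signalling receptor for IL-1, showed its highest values at ZT2, at 51.2 and 45.5 rpbp. It was at 13.4 and 12.0 rpbp at ZT6, 25.1 and 20.3 rpbp at ZT10, 21.2 and 23.7 rpbp at ZT14, 18.4 and 17.4 rpbp at ZT18, and 14.9 and 28.2 rpbp at ZT22. The 2 samples of ZT22 thus span the values of ZT10 to ZT18. From ZT6 to ZT22 the range over times was 0.79 on the log2 scale, with the highest mean at ZT10 and the lowest at ZT6 (limma, adjusted p = 0.206). Without the series 2 sample of ZT22 the adjusted p was 0.0572, and without the series 1 sample it was 0.0341. Its range over the alternatives without ZT2 was 0.0341 to 0.519. Il1r1 lies on chromosome 1 (40281925 to 40373043, plus strand).

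Il1rap, the accessory chain that the IL-1 receptor needs to signal, was the steadiest of the 10 genes. It was at 80.6 and 86.0 rpbp at ZT6, 93.6 and 84.4 rpbp at ZT10, 95.4 and 89.6 rpbp at ZT14, 94.0 and 87.3 rpbp at ZT18, and 88.0 and 80.2 rpbp at ZT22, and at ZT2 it was at 72.2 and 75.6 rpbp. Both ZT6 samples lay below both samples of ZT14 and of ZT18, but the log2 range was only 0.15 (adjusted p = 0.661 by limma, and 0.759 without the series 2 sample of ZT22, in a range of 0.412 to 0.837 over the alternatives without ZT2). The gene lies on chromosome 16 (26581790 to 26730203, plus strand). Of its 11360 exon bases, 552 overlap a gene on the other strand, and reads were counted without regard to strand, so that a small part of its signal could come from there.

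Stat3, the transcription factor activated by IL-6, was lowest at ZT6 and ZT10. Its values were 52.6 and 52.5 rpbp at ZT6, 49.2 and 49.96 rpbp at ZT10, 73.6 and 71.9 rpbp at ZT14, 61.7 and 72.3 rpbp at ZT18, 63.5 and 102 rpbp at ZT22, and 101 and 93.7 rpbp at ZT2. The 4 samples of ZT6 and ZT10 lay below all others, and the series 2 sample of ZT22 lay with those of ZT2. From ZT10 to ZT22 the log2 difference was 0.69 (adjusted p = 0.136 by limma). Leaving out the series 2 sample of ZT22 moved the highest time to ZT14 and the range to 0.54. The adjusted p was then 0.0727, and it was 0.0196 without the series 1 sample, in a range of 0.0196 to 0.280 over the alternatives without ZT2. The gene lies on chromosome 11 (100746412 to 100800854, minus strand), and 72 of its 9527 exon bases overlap Stat5a on the other strand.

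Socs3, the feedback inhibitor of the IL-6 signal, varied most between samples of 1 time. It was at 4.44 and 10.6 rpbp at ZT6, 6.96 and 6.28 rpbp at ZT10, 13.8 and 17.9 rpbp at ZT14, 4.88 and 7.24 rpbp at ZT18, 1.96 and 14.3 rpbp at ZT22, and 10.9 and 15.4 rpbp at ZT2. Both ZT14 samples lay above every sample of ZT6, ZT10 and ZT18, but the ZT22 samples span nearly the whole range. The log2 range from ZT6 to ZT22 was 1.31 (adjusted p = 0.517 by limma). Without the series 2 sample of ZT22 it was 2.50, with an adjusted p of 0.0888, the lowest among the alternatives, whose highest was 0.822. Socs3 lies on chromosome 11 (117827393 to 117831361, minus strand).

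Nfkbia, which encodes the inhibitor IkappaB-alpha, was at 37.0 and 44.4 rpbp at ZT6, 48.6 and 55.3 rpbp at ZT10, 32.9 and 35.4 rpbp at ZT14, 39.9 and 43.2 rpbp at ZT18, 30 and 35 rpbp at ZT22, and 41.6 and 37.3 rpbp at ZT2. The ZT10 samples lay above all 10 others. The step from 32.5 ± 3.54 rpbp at ZT22 to 51.9 ± 4.72 rpbp (SD, n = 2) at ZT10, 0.66 on the log2 scale, had an adjusted p of 0.0625 by limma. Over the alternatives without ZT2 this adjusted p ranged from 0.0346, with the series as a block, to 0.350. The difference was 0.77 without the series 2 sample of ZT22, with an adjusted p of 0.0878. Nfkbia lies on chromosome 12 (56590398 to 56593634, minus strand). Bcl3, a nuclear protein of the IkappaB family that acts as a partner of NF-kappaB p50 and p52, was at 15.0 and 20.6 rpbp at ZT6, 23.0 and 13.9 rpbp at ZT10, 29.7 and 23.3 rpbp at ZT14, 21.0 and 14.6 rpbp at ZT18, 22.4 and 24.6 rpbp at ZT22, and 26.0 and 31.4 rpbp at ZT2. Both samples of ZT14 and of ZT22 lay above both samples of ZT6 and of ZT18, while those of ZT10 were far apart. The log2 range was 0.56, with an adjusted p of 0.370 by limma and of 0.482 without the series 2 sample of ZT22 (0.187 to 0.766 over the alternatives without ZT2). Bcl3 lies on chromosome 7 (20393811 to 20408119, minus strand), with 161 of its 2485 exon bases under a gene on the other strand.

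Cebpb, a C/EBP factor of the acute-phase response, was at 42.8 and 68.0 rpbp at ZT6, 94.1 and 112 rpbp at ZT10, 75.2 and 65.9 rpbp at ZT14, 56.2 and 46.8 rpbp at ZT18, 33.6 and 70.0 rpbp at ZT22, and 60.2 and 66.6 rpbp at ZT2. The ZT10 samples were the highest of the 12, at 103 ± 12.8 rpbp (SD, n = 2), and the 2 samples of ZT22 differed widely, at 51.8 ± 25.7 rpbp. The log2 range was 1.07 (adjusted p = 0.194 by limma) and 1.59 without the series 2 sample of ZT22 (adjusted p = 0.0657, the lowest among the alternatives, whose highest was 0.426). Cebpb is a single-exon gene on chromosome 2 (167514415 to 167515918, plus strand), and 312 of its 1504 exon bases overlap Tmem189 on the other strand.

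Cebpd, its relative, was at 2.84 and 1.72 rpbp at ZT6, 5.76 and 10.2 rpbp at ZT10, 5.96 and 5.20 rpbp at ZT14, 4.16 and 2.64 rpbp at ZT18, 3.24 and 2.44 rpbp at ZT22, and 3.88 and 4.52 rpbp at ZT2. The 4 samples of ZT10 and ZT14 were the highest. Its log2 range of 1.43 had an adjusted p of 0.101 by limma (0.156 without the series 2 sample of ZT22, 0.0770 to 0.221 over the alternatives without ZT2), and the gene entered the test only through the 1 value above 8 rpbp at its highest time. Cebpd lies on chromosome 16 (15887379 to 15888559, plus strand).

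Junb, an immediate early gene whose protein is a subunit of AP-1, had the widest log2 range of the 10 genes from ZT6 to ZT22 with all 10 samples. It was at 40.5 and 49.8 rpbp at ZT6, 9.76 and 15.3 rpbp at ZT10, 9.36 and 23.2 rpbp at ZT14, 18.6 and 28.9 rpbp at ZT18, 14.1 and 11 rpbp at ZT22, and 21.9 and 20.5 rpbp at ZT2. Both ZT6 samples lay above all 10 others. From 12.5 ± 3.90 rpbp at ZT10 to 45.1 ± 6.53 rpbp (SD, n = 2) at ZT6, the log2 difference was 1.79 (adjusted p = 0.0715 by limma, 0.132 without the series 2 sample of ZT22, 0.0340 to 0.549 over the alternatives without ZT2). The low end of that range came with a ZT14 sample left out, which leaves 1 sample there and drops the spread between 9.36 and 23.2 rpbp. The log2 difference was then 1.79 without the series 1 sample and 2.15 without the series 2 sample. Junb is a single-exon gene on chromosome 8 (87500811 to 87502617, minus strand).

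The 10 genes were not at their highest together. Among the times from ZT6 to ZT22, the highest mean was at ZT6 for Junb, at ZT10 for Il1r1, Nfkbia, Cebpb and Cebpd, at ZT14 for Il6ra, Il1rap, Socs3 and Bcl3, and at ZT22 for Stat3. The latter rests on the series 2 sample of ZT22, without which Stat3 was highest at ZT14. Over the 45 pairs of genes, Pearson's r of log2(rpbp + 1) over the 12 samples lay between −0.57 and 0.74 with a median of 0.02, and 7 pairs were above 0.6. Without ZT2 the range was −0.76 to 0.79 with a median of 0.16, and 4 pairs were above 0.6. The highest pair with all samples was Il1r1 and Stat3 (r = 0.74, rho = 0.57), at 0.50 without ZT2, and the highest without ZT2 was Il6ra and Cebpd (0.79, and 0.71 over 12). Il1r1 and Il1rap, which encode 2 chains of 1 receptor, had r = −0.57 over the 12 samples and 0.20 without ZT2. These correlations share the samples and the 6 times and are given as descriptions.

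**Figure D2:**
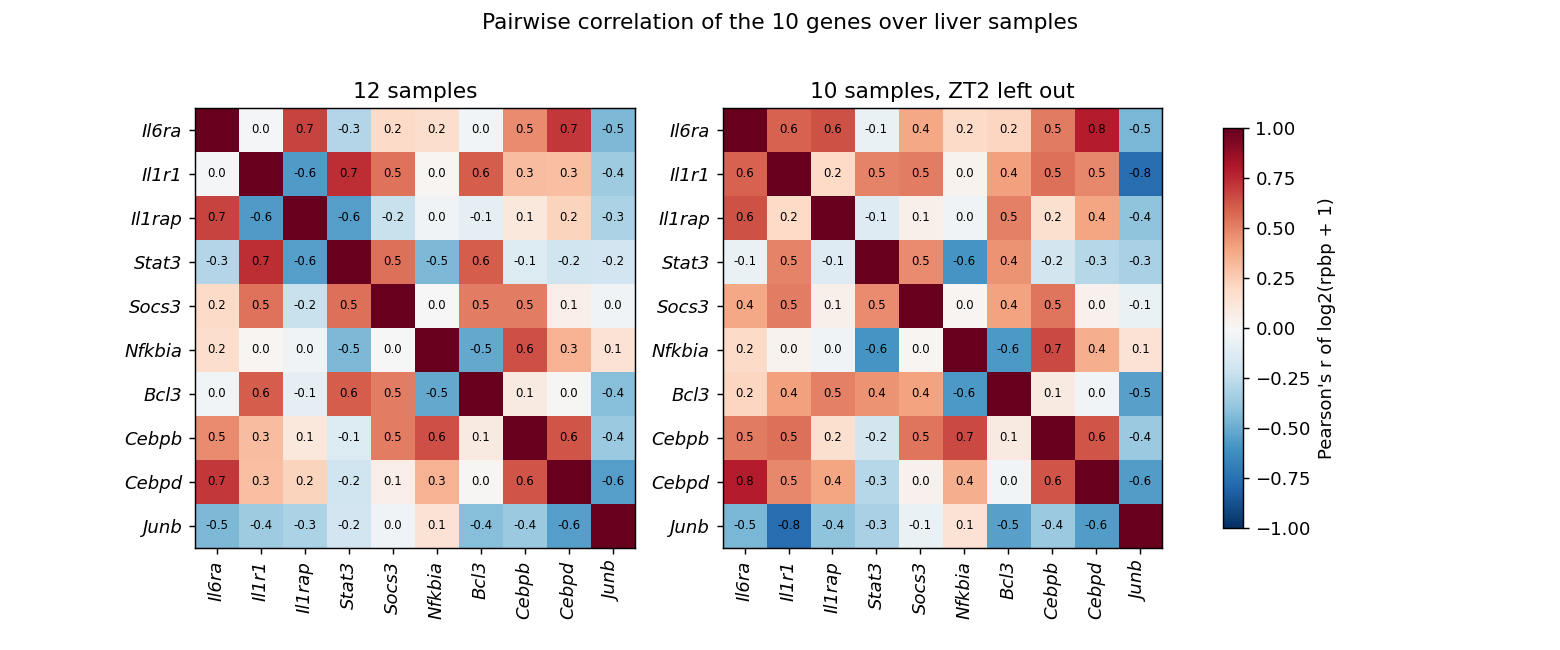
Pearson's r of log2(rpbp + 1) for each pair of the 10 genes, over the 12 samples (left) and over the 10 samples without ZT2 (right), from −1 (blue) to 1 (red). Il1r1 with Stat3 moves from 0.74 to 0.50 and Il1r1 with Il1rap from −0.57 to 0.20 when ZT2 is left out, whereas Cebpb with Nfkbia and Cebpb with Cebpd keep r above 0.6.

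At ZT2, which chose the genes, the differences were mixed. The log2 difference of the ZT2 mean from the mean of the 10 other samples was positive in 7 of the 10 genes, with a median of 0.11 against 0.04 over all expressed genes. Both ZT2 samples lay above the 10 others in 1 gene, Il1r1 (10.4% of all expressed genes), and below them in 1 gene, Il1rap (9.58% of all expressed genes). Nothing is read from these counts, since the contrast was used in the choice. Il1r1 was 2.49 times as high at ZT2 as at the other times on the scale of log2(rpbp + 1), a difference of 1.31. Il1rap, with ZT2 samples at 72.2 and 75.6 rpbp and the others from 80.2 to 95.4 rpbp, was at a difference of −0.24. The 2 chains of the IL-1 receptor thus lay on opposite sides at ZT2.

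Stat3 differed by 0.61, and the series 2 sample of ZT22, at 102 rpbp, was the only other sample that reached the ZT2 samples. Without it, both ZT2 samples of Stat3 lay above all others too, and the difference was 0.69. Socs3 differed by 0.70 and Bcl3 by 0.48, each with overlap. Junb (0.16), Cebpd (0.06), Cebpb (0.01) and Nfkbia (−0.01) lay close to 0, all within their SD between samples of a time. Il6ra was lower at ZT2 by 0.53 in the mean over the other times, but its ZT2 samples were level with those of ZT22 and ZT6, and against these neighbours alone the difference was 0.02.

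**Figure D3:**
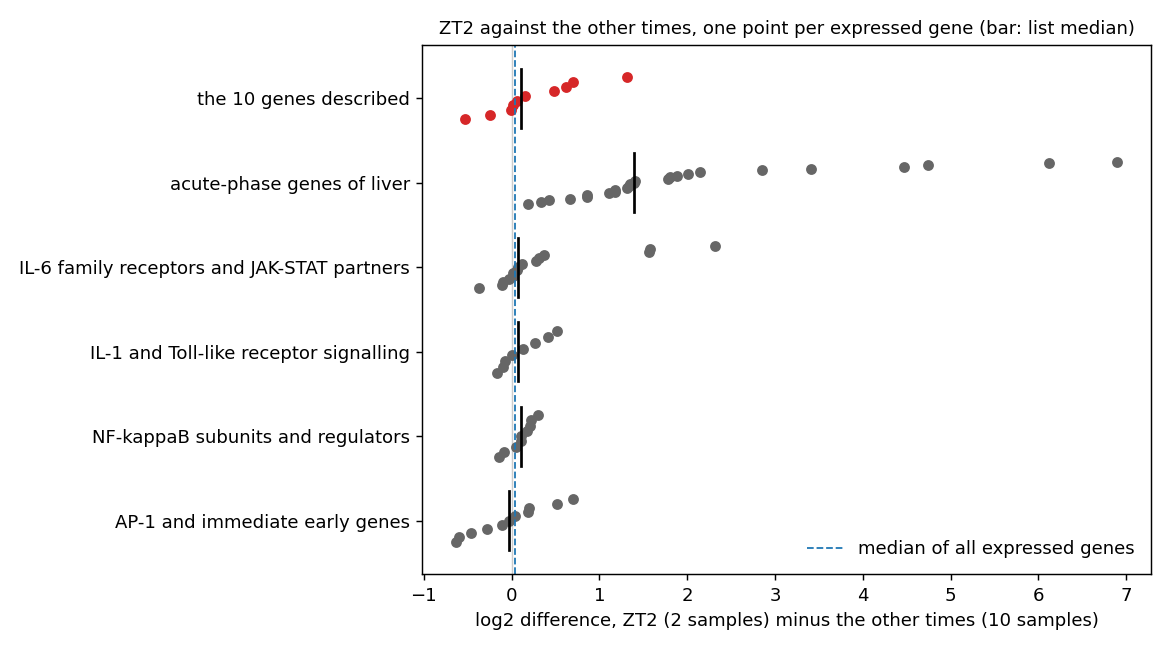
log2 difference of the mean of the 2 ZT2 samples from that of the 10 other samples, 1 point per expressed gene, for the 10 genes (red) and for lists of related genes (grey); black bars are list medians and the dashed line is the median of all expressed genes (0.04). The acute-phase genes have a median of 1.39, and the medians of the receptor and regulator lists lie between −0.02 and 0.11.

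The rest of the pathway was followed through lists of known members, drawn up with earlier results of these data known. Of 17 genes of the IL-6 receptor family and its JAK-STAT partners, 15 were expressed. In the time effect from ZT6 to ZT22, 1 of them was called (6.15% of all expressed genes were). This was Stat5b, a STAT factor of growth hormone signalling, which was higher at ZT22 (42.1 ± 3.48 rpbp, SD, n = 2) than at ZT10 (27.3 ± 2.06 rpbp), a log2 range of 0.60 (limma, adjusted p = 0.0437). Its range was 0.69 without the series 2 sample of ZT22, with an adjusted p of 0.0746, while the genes called in all went from 627 to 294. In 3 of the 15, both ZT2 samples lay above the 10 others, as in 10.4% of all expressed genes, a share that also stands beside the ZT2 counts of the lists below. They were Socs2, an inhibitor of growth hormone signalling (28.6 and 46.6 rpbp at ZT2, a log2 difference of 2.31), Lifr, the receptor for leukemia inhibitory factor (284 and 302 rpbp, 1.58), and Il6st, which encodes gp130 (85.6 and 87.4 rpbp, 0.28). The median difference of the list was 0.07.

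Of 17 genes of IL-1 and Toll-like receptor signalling, 8 were expressed and none was called by limma (6.15% of all expressed genes were). The kinase genes Irak2 (24.4 and 23.1 rpbp at ZT2, a log2 difference of 0.52) and Irak4 (11.5 and 11.8 rpbp, 0.41) had both ZT2 samples above the others. Of 14 NF-kappaB subunits and regulators, 9 were expressed and none was called (6.15% of all expressed genes were). Nfkbib, which encodes IkappaB-beta, had both ZT2 samples above the others, at 18.04 and 17.12 rpbp, with a log2 difference of 0.30. Of 19 AP-1 and immediate early genes, a list that also holds the C/EBP genes Cebpa and Cebpg, 11 were expressed. Among them 1 was called (6.15% of all expressed genes were), Myc, a proto-oncogene for a growth-related transcription factor. It had means (± SD, n = 2) of 13.6 ± 0.537 rpbp at ZT14 against 1.54 ± 0.255 rpbp at ZT18 (adjusted p = 0.0133 by limma). The log2 range was 2.52, with and without the series 2 sample of ZT22. Myc was above 8 rpbp in the 4 samples of ZT10 and ZT14 alone, so it entered the test through the times where it was high. Ier2 had both ZT2 samples above the others (26.2 and 20.3 rpbp, 0.52), and Fos stayed between 0.36 and 5.76 rpbp. In none of these lists did a gene have both ZT2 samples below all others, as 9.58% of all expressed genes did.

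Of the 25 acute-phase genes in the table, all were expressed, and none was called from ZT6 to ZT22 by limma (6.15% of all expressed genes were). In 15 of the 25, both ZT2 samples lay above the 10 others. Without the series 2 sample of ZT22 this held for 20 of them, and among all expressed genes the count went from 1056 to 1297. The largest ZT2 differences were those of Saa2 (6.90 on the log2 scale), Saa1 (6.12), Lcn2 (4.75) and Saa3. The list's rise at ZT2 was known from these samples when it was drawn up and is not independent evidence.

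The level of each gene was then set beside the mean of the 25 acute-phase genes in the same samples. Over 12 samples Pearson's r was 0.90 for Stat3 (rho = 0.80), 0.89 for Il1r1 (0.77), 0.62 for Bcl3 (0.76), 0.56 for Socs3 (0.78), −0.74 for Il1rap (−0.37) and −0.40 for Il6ra (−0.19), and it lay between −0.17 and 0.10 for Nfkbia, Cebpb, Cebpd and Junb. With ZT2 left out r was 0.86 for Stat3, 0.63 for Il1r1 and −0.28 for Il1rap. With the series 2 sample of ZT22 left out as well, it was 0.75 for Stat3, 0.62 for Socs3 and 0.47 for Il1r1 over 9 samples, and it changed sign for Il1rap (0.63), Il6ra (0.56) and Cebpd (0.20). Stat3, Il1r1, Socs3, Bcl3 and Cebpb had a positive r in all 3 sets of samples, which for Cebpb was at most 0.21. The negative r of Il1rap rested on the ZT2 samples and the series 2 sample of ZT22. The samples form separate clusters on the acute-phase axis, so these values describe the 12 samples only.

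**Figure D4:**
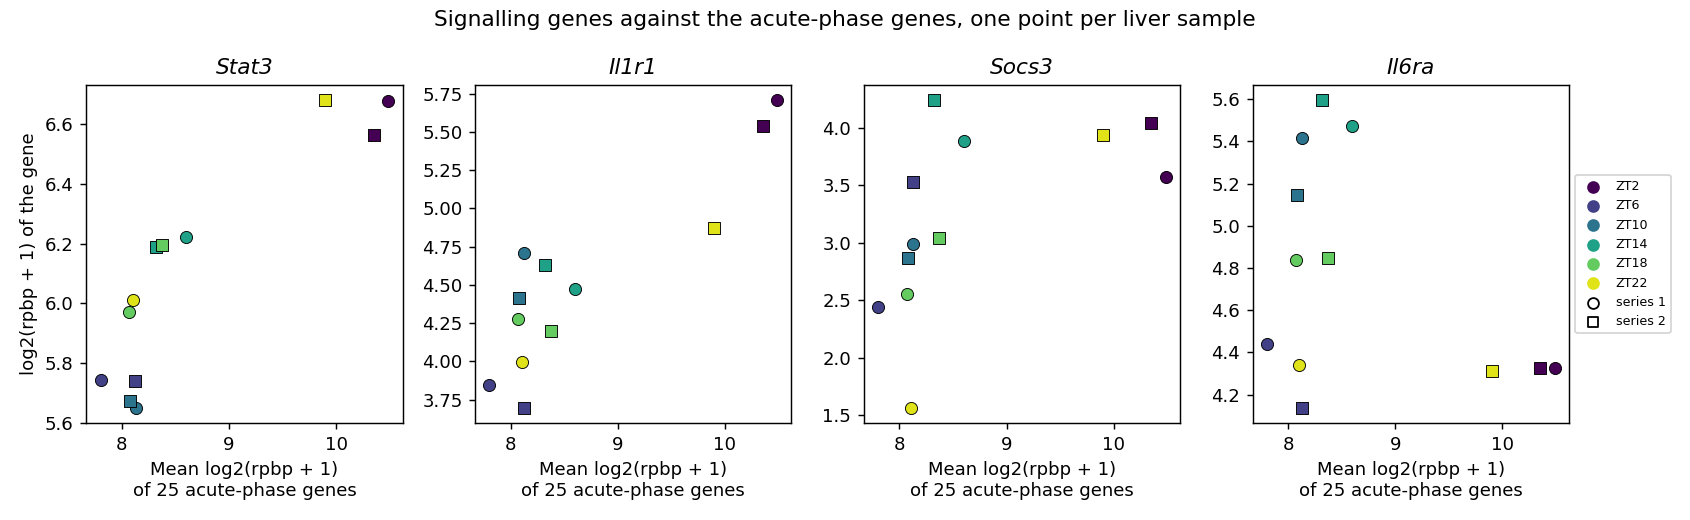
log2(rpbp + 1) of Stat3, Il1r1, Socs3 and Il6ra against the mean log2(rpbp + 1) of 25 acute-phase genes, 1 point per sample, coloured by time, with circles for series 1 and squares for series 2. The ZT2 samples (10.5 and 10.4) and the ZT22 sample of series 2 (9.90) stand to the right of the other 9. Stat3 is high in all 3. Il6ra is low in all 3, but it is as low in the ZT22 sample of series 1 (19.2 rpbp) and at ZT6 (20.7 and 16.6 rpbp).

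For each gene, the 3 expressed genes with the highest r over the 12 samples were taken. For Stat3 they were Itih3 (0.99), an inter-alpha-trypsin inhibitor chain that is itself on the acute-phase list, Hc (0.97), which encodes complement C5, and Slc41a2 (0.97). For Il1r1 they were Ob1 (0.97), Hopx (0.97) and Aadat (0.95), and for Il6ra Fkbp5 (0.94), a well-known glucocorticoid target, 5730403B10Rik (0.92) and Man2a1 (0.92), a mannosidase of the Golgi. Il6ra and Fkbp5 both spanned a wide range, of 16.6 to 47.3 rpbp and 14.3 to 66.6 rpbp. For Il1rap they were Nfic (0.91), 1200013P24Rik (0.91) and mKIAA1870 (0.90). For Cebpb they were Chac1 (0.93), mD53 (0.90) and Mrpl18 (0.86), and for Cebpd Ercc3 (0.95), Zbtb16 (0.92) and PLC-epsilon (0.89). For Junb they were Prkcn (0.92), Sgk2 (0.87) and Atn1 (0.86), for Bcl3 Cxxc1 (0.92), BC040266 (0.91) and AK162043 (0.90), and for Nfkbia mKIAA0666 (0.84), Daam1 (0.83) and Arid5b (0.83). For Socs3, Ddx49 (0.89) and AK212208 (0.86) were among them. These are the highest of all expressed genes and carry no test.

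Set against a 24 hr cosine, as the study defines a rhythm (permutation p below 0.05, F24, the share of the variance at 24 hr, above 0.45, and a highest over lowest value above 1.5), 1 of the 10 genes, Il6ra, met the criteria (19.2% of all expressed genes did). The 12 values include ZT2, so nothing is read from this count. Il6ra had an F24 of 0.84 with a phase of 13.2 hr and a 2.85-fold amplitude. Its F24 was 0.90 in series 1 alone and 0.83 in series 2 alone, and it met the criteria in series 1 only. Il1rap had an F24 of 0.70 with a phase of 14.3 hr, but its amplitude was 1.32-fold. Stat3 had an F24 of 0.46 with a phase of 22.6 hr, which was 0.25 in series 1 and 0.80 in series 2. Cebpb (0.42), Cebpd (0.38), Nfkbia (0.34), Junb (0.23), Il1r1 (0.21), Bcl3 (0.08) and Socs3 (0.003) were below the F24 minimum.

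No gene differed past the threshold between the 2 series. In limma with the time point as a factor, 0 of all expressed genes were called, and 418 had an unadjusted p below 0.05. Among the 10 genes this was so for Socs3 only, which was higher in series 2 at 5 of 6 times (7.15 rpbp on average in series 1 and 11.95 rpbp in series 2, a log2 difference of 0.77 with an SE of 0.28, adjusted p = 0.993 by limma). Without the series 2 sample of ZT22 the difference was 0.45 (unadjusted p = 0.0270 by limma), and that of Junb was 0.53 (unadjusted p = 0.0141), against 0.38 with all samples. Il1r1 was at 0.06, and it turned to −0.11 when either ZT22 sample was left out.

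Cell markers moved with ZT2 as well. The summed level of 7 hepatocyte markers was 86043 and 89039 rpbp at ZT2 and between 126684 and 161679 rpbp in the other samples, and none of them was at 0. The sum is carried by Alb, with means of 51786 rpbp at ZT2 and 107195 rpbp elsewhere, and Apoa1 (17593 and 11969 rpbp) and Serpina1a (3880 and 3112 rpbp) went the other way. The sum of 8 Kupffer cell and macrophage markers, 7 of them expressed, was 612 and 618 rpbp at ZT2 and between 303 and 494 rpbp elsewhere. The 7 neutrophil markers in the table, 2 of them expressed, summed to 19.12 and 24.96 rpbp at ZT2, to 25.4 rpbp in the ZT22 sample of series 2 and to between 4.80 and 16.1 rpbp in the 9 other samples. At ZT2 this sum is mostly S100a8 (means of 8.12 rpbp at ZT2 and 2.43 rpbp elsewhere) and S100a9 (10.24 and 4.68 rpbp). Csf3r, Retnlg, Ngp, Camp and Mpo were at most at 2.04 rpbp in any sample. The 4 cholangiocyte markers in the table, 2 of them expressed, summed to 129 and 229 rpbp at ZT2 and to between 63.7 and 144 rpbp elsewhere. That sum is nearly all Spp1 (means of 168 and 78.1 rpbp), with Sox9 at 8.36 and 4.98 rpbp, Krt7 at 1.38 and 1.14 rpbp and Krt19 at 0.86 and 1.496 rpbp. The sums of T and B cell markers (4.16 to 5.84 rpbp), endothelial markers (108 to 115 rpbp) and stellate cell markers (227 to 251 rpbp) at ZT2 overlapped those of the other samples. Their part in the ZT2 values of Il1r1, Stat3 and Il1rap was not tested. In whole liver, fewer cells of a type and less RNA per cell cannot be told apart. The ZT2 samples also had the most genes above 8 rpbp (9108 and 9049, against 8762 to 9001 in the others) and the lowest share of signal in the 10 highest genes (24.3% and 25.3%, against 25.8% to 28.9%).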

How the data were processed

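Poly(A) RNA-Seq of 12 mouse livers was used. The authors mapped the sequences to mm9 with TopHat, kept those with a unique place, and divided the base coverage over the merged exons of a gene by their length, without regard to strand. The deposited signal is this coverage per 10000000 uniquely mapped sequences, and it was multiplied by 4 here. It is no count of reads, so no counting interval is given. The authors' rhythm statistics (3 columns) were not used. The columns named ZT20 were taken as ZT22, as in the sample labels. Genes above 8 rpbp in at least 1 sample were tested with limma 3.58.1 (R 4.3.3, eBayes with trend) on log2(rpbp + 1), with Benjamini-Hochberg adjustment at 0.05. So log2 differences, and the fold of Il1r1 at ZT2, are on that scale and understate low genes. The ratios between the 2 samples of ZT22 and the amplitudes are of plain rpbp. F24 was tested over 10000 orders of the values (seed 1). The members and lists were chosen with earlier results of these data known. Named were all members, the 3 genes most like each, and up to 4 per list called over time or not overlapping at ZT2. A result under this rule is not reported here. Gene positions are those of GENCODE vM1 (mm9), and promoters those of RefSeq (GRCm38.p6). Alternatives were other pseudocounts, expression minimums, scalings, eBayes without trend, a 24 hr cosine in place of the time factor, ZT2 included, samples left out and a block for the series. The limma script was tested on simulated data. Python 3.11.15 was used.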

Additional observations from a re-analysis of the deposited data

How the results depend on the processing

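The time effect of Il6ra passed the threshold under every alternative run (adjusted p 0.000742 to 0.0261, limma). Of the 10 genes, 2 were called with the series as a replicate block, 5 with ZT2 included, and 1 to 3 with a sample left out. Nfkbia was the second with the block (adjusted p = 0.0346, in a range of 0.0345 to 0.350 over all alternatives), and with ZT2 included Stat3, Nfkbia, Junb and Il1r1 joined, from which nothing can be read, since ZT2 was used in the choice of the genes. Over all genes, 238 were called without an expression minimum, 412 with the block, 2076 with ZT2 included and 146 to 529 with a sample left out. The lowest counts came without either sample of ZT6, and 294 were called without the series 2 sample of ZT22. The cause of these changes was not tested. Over 15 pairs of times, the deviations of same-numbered samples had r between −0.15 and 0.21 (median −0.03), with 2 above 0.1. These values do not show whether the replicate numbers pair the samples for a single gene. Apart from Nfkbia, no call of the 10 genes changed with the block. Both ZT2 samples lay above the others in 3 genes (Il1r1, Bcl3 and Cebpd) when ZT22 and ZT6 alone were compared (17.7% of all expressed genes), and in 1 to 2 with a sample left out: Stat3 without the series 2 sample of ZT22 (12.7% of all genes), and Bcl3 without the series 1 sample of ZT2 (16.1%) or of ZT14 (11.3%). The rhythm criteria held for 527 of all genes with adjusted p-values, and for 286 to 369 of all genes and 0 to 1 of the 10 genes with 1 series alone, Il6ra being lost in series 2. The series difference of Il1r1 ranged from −0.11 to 0.13 with a sample left out. With 2 samples a time, the spread of a gene rests on few values, and depth cannot be read from the coverage.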
